A study of Mus musculus with 2 samples.

Results

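The genes described here are 59 phagocyte receptor genes, read by 89 probes among 27962 gene names and 41174 probes of the array. They were picked by name, as the Toll-like receptors, every gene named Clec or Fcgr, and a fixed set of adaptors, scavenger receptors and macrophage surface markers. The rule used names and no threshold on a value, but the genes and lists were chosen with earlier results of these data known. Of the names listed, Lyz, Lyz1, Lyz2 and Pirb were not used as names on this array design.

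Expression was compared between C57BL/6N mice that lack PKGI (KO), a kinase switched on by cGMP and made from the gene Prkg1, and wild type mice (WT). The BAT array set untreated brown adipose tissue (BAT, a fat that makes heat) of KO, in Cy5, beside that of WT, in Cy3. The adipocyte array set brown adipocytes of KO, differentiated in a dish from such tissue, in Cy3, beside those of WT, in Cy5, so the dyes were the other way round. The deleted part of Prkg1, the animals' age and sex and the length of culture are not given in the sources used here.

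Each comparison is 1 two-colour array with no replicate array and no dye swap. The genotypes could therefore not be tested against each other, p-values are left out, and a dye bias and a genotype difference cannot be told apart for any one gene. All ratios are log2 of KO over WT, relative to the middle of all genes on that array. "Lower" and "higher" without a value stand for 2-fold or more (log2 ratios beyond 1 or -1), and smaller differences are given as values. "Signal" is the normalized intensity of a channel, averaged over a gene's probes on the log scale, and is used only to set KO beside WT for the same gene. Probes spotted repeatedly on an array (up to 10 spots) had a pooled SD between spots of 0.10 (BAT array) and 0.09 (adipocyte array), which covers spotting and scanning only. The number of arrays limits the precision of everything below.

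Phagocytes such as macrophages sample their surroundings through a few families of receptors. Toll-like receptors recognise microbial lipids, proteins and nucleic acids, and most of them signal through MyD88 to NF-kB. C-type lectins and Fc receptors bind sugars and antibody-coated particles, many of them through the adaptors encoded by Fcer1g and Tyrobp, whose cytoplasmic ITAM motifs recruit the kinase Syk. Scavenger receptors and the kinases Axl and Mertk take up modified lipoproteins and dying cells. Brown and white fat both hold resident macrophages, and fat precursors prepared from tissue for culture can carry some of them.

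The samples differed in ways other than the 59 genes. Prkg1 had 2 probes well above background in both channels. They had -1.29 and -1.22 on the BAT array and -0.94 and -2.31 on the adipocyte array. Another of its probes, well above background in KO only, had 0.005 and 0.17. The last was not well above background in either channel. Mature fat cell genes were lower in the KO culture for 10 of 10 (median -3.93), and skeletal muscle genes in the KO tissue for 7 of 7 (median -3.21). Xist, an RNA that coats the inactive X, had 7.72 on its brightest probe in tissue, where the Y-linked Eif2s3y had -6.40. In culture that Xist probe had -5.26 (signal 115 in KO and 4390 in WT), while Eif2s3y was bright in both channels (4961 and 5380). The compared samples thus differed in sex-linked RNA on both arrays, and the WT culture held both Xist and Y-linked RNA. In tissue 1 of 9 measured mature fat cell genes was higher and none lower (median 0.03). Of 7 brown fat genes there, 4 were lower and 1 higher (median -1.04, or -0.17 with outlier spots kept). Fat cell markers were bright in both channels of the BAT array (Fabp4, a fatty acid carrier, read 89600 in KO and 89840 in WT). In culture they went against the label in KO: Fabp4 read 1116 and 53220, the hormone gene Adipoq 1959 and 72940, and Ucp1, the heat-making protein of brown fat, 147 and 2028, while Lep and Elovl3 were well above background in WT only. The part of sex, muscle content and fat cell content in the values below was not tested.

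In cultured adipocytes the phagocyte receptor genes were lower in KO as a group but not uniformly. Of the 59 genes, 52 were measured (a probe of theirs stood well above background in KO or WT), and 21 were lower in KO and none higher. That is 40.4% of those measured, beside 3.81% lower and 2.15% higher among all 19474 genes measured on that array. Their median was -0.83, with a range from -3.63 to 0.97, against -0.016 over all genes. All 21 lower genes were well above background in both channels. The remaining 7 (Clec2e, Clec2h, Clec3a, Clec4f, Clec4g, Clec9a and Trem1) were not well above background in either channel. Fewer phagocytes and less of these RNAs in each phagocyte cannot be told apart in such bulk RNA. In the tissue the same genes lay near 0. There 49 were measured, none was lower or higher (against 2.47% lower and 0.968% higher among all 20564 genes measured), and the median was 0.02 with a range from -0.54 to 0.87.

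The share of all genes past 2-fold moved with the processing, and in tissue so did its direction. With the scanner software's ratio 6.68% were lower and 11.5% higher in tissue, and 6.37% and 5.29% in culture, nearly as in the authors' deposited table (6.66% and 11.4%, then 6.36% and 5.27%). Without loess the shares were 2.94% and 4.59% in tissue and 7.63% and 1.09% in culture. Without the offset they were 5.88% and 3.4% in tissue and 5.35% and 3.64% in culture. Keeping outlier spots drew tissue ratios towards 0, with 0.533% lower and 0.224% higher. Under those settings between 21 and 26 receptor genes were lower in culture, and none in tissue. In tissue 47.4% of all genes lay below 0, as did 22 of the 49 receptor genes.

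**Figure D1:**
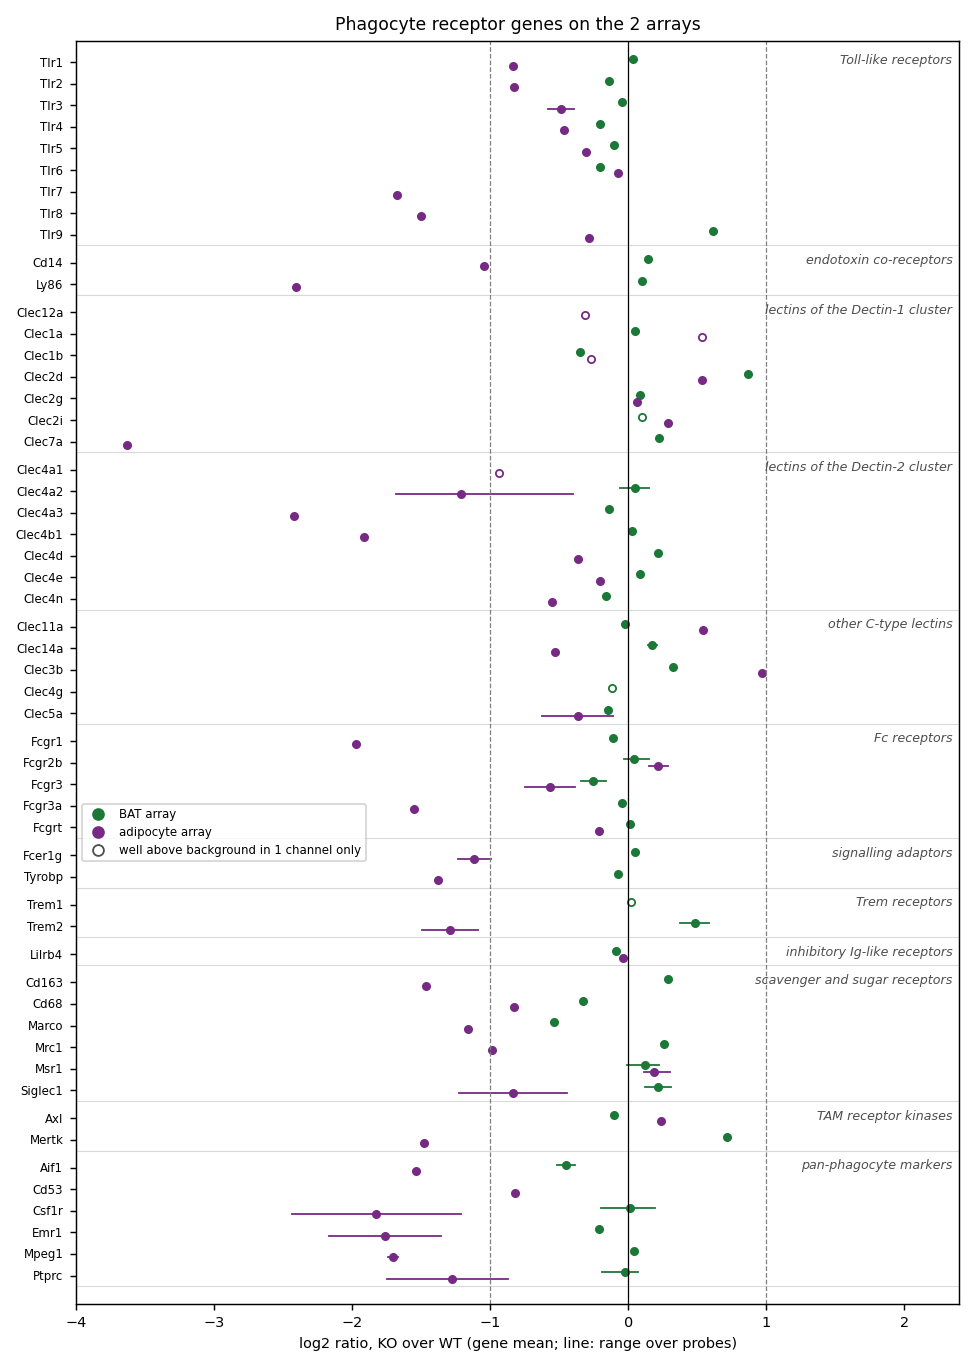
Log2 ratio of KO over WT (x axis) for each phagocyte receptor gene measured (y axis, grouped by role) on the BAT array (green) and the adipocyte array (purple); points are gene means, lines the range over probes, open points genes well above background in only 1 channel, dashed lines 2-fold. On the adipocyte array 21 genes lie left of the lower dashed line, and on the BAT array none lies beyond either.

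Of the 6 general phagocyte markers 5 were lower in culture. Csf1r, the receptor for the growth factor that keeps macrophages alive, gave a signal of 896 in the KO culture and 3177 in the WT culture. That is 3.54-fold lower (-1.82), with its 3 probes between -2.44 and -1.21. Emr1, which encodes the F4/80 antigen, read 2001 and 6800 (-1.76, probes at -2.17 and -1.36). Mpeg1, a pore-forming protein of macrophages, read 2001 and 6515 (-1.70). Aif1, a calcium-binding protein of macrophages, read 5609 and 16270 (-1.54). Ptprc, the CD45 phosphatase of all white blood cells, had 4 probes between -1.74 and -0.87 with a mean of -1.28. The most reliable of these was spotted 10 times and had -1.74 with an SD of 0.07 between spots. Cd53, a tetraspanin of white blood cells, was under 2-fold at -0.82, and past it without loess. All 6 markers were below 0.

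In tissue the same markers had nearly equal signals in both genotypes. Csf1r read 471 in KO and 467 in WT (0.01), Ptprc 219 and 222 (-0.02), and Mpeg1 1863 and 1804 (0.05). Emr1 had -0.21 and Aif1 -0.45, the lowest of the group there. Cd53 had only spots with an outlier mark on the BAT array, where the scanner software's ratio was 0.25.

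All 9 Toll-like receptor genes were measured in culture and all were below 0, against 52% of all genes, with a median of -0.49. Tlr7 and Tlr8, the X-linked receptors for single-stranded RNA, passed 2-fold, and without loess Tlr1 and Tlr2 did too. Tlr7 read 1071 in KO and 3413 in WT (3.19-fold lower), and Tlr8 read 298 and 844 (2.84-fold lower). Both lie on the X chromosome, and Xist differed between the same cultures, but its part in their ratios was not tested. Tlr1 and Tlr2, which bind bacterial lipoproteins as a pair, had -0.83 and -0.82, and Tlr2 was spotted 10 times, with 9 spots kept and an SD of 0.06. Tlr6, the other partner of Tlr2, had -0.07 (0.02 by the scanner software's own ratio). The endotoxin receptor Tlr4 had -0.46 over 10 spots (SD 0.08), the double-stranded RNA receptor Tlr3 had -0.49, the flagellin receptor Tlr5 -0.30 and the DNA receptor Tlr9 -0.28.

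Toll-like receptors in tissue stayed within 2-fold. Tlr9 was the highest at 0.61 (3787 in KO and 2475 in WT), and Tlr4 and Tlr6 were the lowest at -0.20 each. Without loess Tlr9 had 1.16. Tlr8 was not well above background in tissue, and Tlr7 had only an outlier-marked spot, with -0.57 by the scanner software's ratio and -0.06 when such spots were kept.

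Both genes grouped here as endotoxin co-receptors were lower in culture. Ly96, from the Toll-like receptor signalling list described below, had 0.26 there. Ly86, the secreted partner of the receptor Cd180, read 4123 in KO and 21880 in WT, which is 5.31-fold lower. Cd14, which hands endotoxin to Tlr4, read 1705 and 3518 (2.06-fold lower). In tissue Ly86 had 0.10 and Cd14 0.15.

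Values of the lectin genes in culture spread widely within each cluster. Clec7a, which encodes the fungal beta-glucan receptor Dectin-1, differed more than any other of the 52 measured genes in culture. It read 700 in KO and 8685 in WT, 12.4-fold lower, whereas in tissue it read 439 and 377 (0.22). The genes grouped here with its cluster were set by name, as Clec1a, Clec1b, Clec9a, Clec12a and every Clec2 gene. None of them was lower in culture, though Clec12a and Clec1b passed 2-fold with the scanner software's ratio. Clec2d, a ligand of natural killer cell receptors, had 0.53 in culture (6166 in KO and 4261 in WT) and 0.87 in tissue, the highest of the 49 genes measured there. Clec12a and Clec1b were well above background in the WT culture only, at -0.31 and -0.27, and Clec1a in the KO culture only, at 0.53 (past 2-fold with offset 0 and with the scanner software's ratio), so these 3 values set a dim signal against one not well above background. Clec2g had 0.06 and Clec2i 0.29.

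Of the 7 Dectin-2 cluster lectins all were below 0 in culture and 3 were lower. Clec4a3 read 613 in KO and 3280 in WT (5.35-fold lower) and Clec4b1 read 3187 and 12030 (3.78-fold lower). Clec4a2, an inhibitory lectin, had a mean of -1.21, with its 2 bright probes at -1.68 and -1.56 and the remaining one, not well above background in KO, at -0.40. Clec4a1 was too dim in KO for more than a bound, at least 1.90-fold, and had -3.07 by the scanner software's ratio. Clec4n (Dectin-2), Clec4d and Clec4e (Mincle), which bind fungal or mycobacterial sugars, differed less, at -0.55, -0.36 and -0.20. In tissue the 6 measured genes lay between -0.16 and 0.21.

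The remaining lectins stayed within 2-fold in culture, except that Clec3b passed it with offset 0 and with the scanner software's ratio. Clec3b, which encodes the plasma and matrix protein tetranectin, was the highest of the 52 in culture, reading 1767 in KO and 900 in WT (0.97), just under 2-fold. Clec11a, a secreted growth factor, had 0.54. Clec14a, an endothelial surface protein, had -0.53 on its 1 measured probe, and Clec5a, a myeloid receptor that signals through Tyrobp, had -0.36 with 3 probes between -0.62 and -0.11. In tissue Clec3b had 0.33 and Clec11a -0.02.

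The genes of each lectin cluster share a stretch of a chromosome, as do the low-affinity Fc receptors and the adaptor Fcer1g. The choice of genes did not use this, and other genes that may lie between them were not looked at. Going by where the array's probes map (the build is not given), the Dectin-2 cluster spans chromosome 6 from 122964991 to 123319699. In that order the culture ratios were -0.93 for Clec4a1, a bound, then -2.42 for Clec4a3, -1.92 for Clec4b1, -1.21 for Clec4a2, -0.55 for Clec4n, -0.36 for Clec4d and -0.20 for Clec4e. From Clec4a3 onwards each gene was closer to 0 than the one before it. On chromosome 1 from 170937333 to 171199880 the order was Fcgr2b (0.22), Fcgr3a (-1.55), Fcgr3 (-0.57) and Fcer1g (-1.11), with no such gradient. In the group named here for Dectin-1, Clec7a came last in order and was the only gene lower in culture. Of the genes mapped closest to it, Clec12a, Clec1b and Clec1a were each well above background in only 1 channel, and Clec9a in neither. Their values therefore say little about whether Clec7a differed from its neighbours. Many of these genes are close paralogues, and reading of one gene's RNA by another's probe was not tested.

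**Figure D2:**
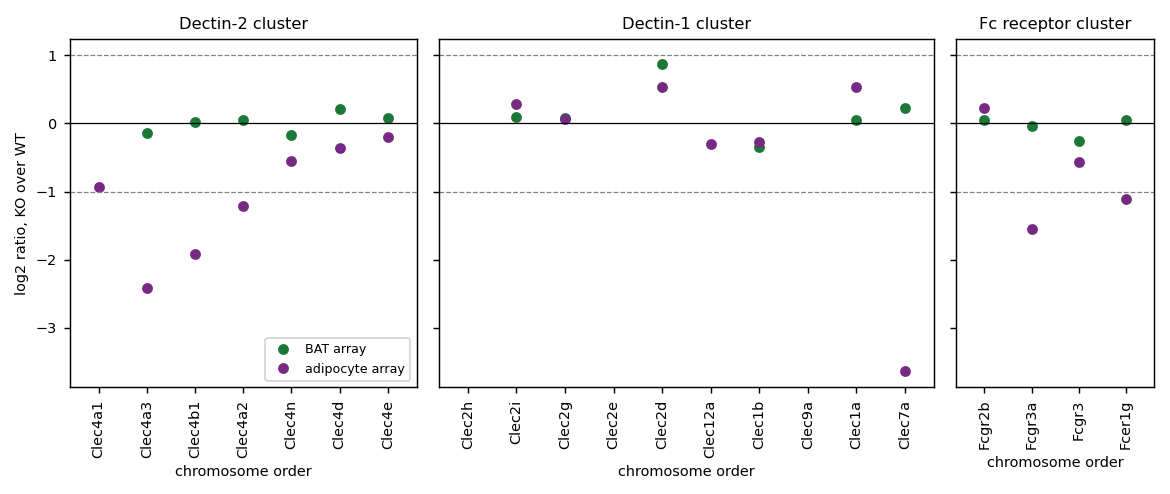
Log2 ratio of KO over WT (y axis) of the genes grouped in the Dectin-2, Dectin-1 and Fc receptor clusters, in their order along the chromosome (x axis). The BAT array is green and the adipocyte array purple. Genes without a point were not measured and dashed lines mark 2-fold. In culture Clec4a3 to Clec4e run from -2.42 to -0.20. Clec7a sits at -3.63 beside Clec1a at 0.53, which was well above background in KO only. The tissue points lie between -0.35 and 0.87.

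Of the 5 Fc receptor genes, whose proteins bind the constant part of antibodies, 2 were lower in culture. Fcgr1, the high-affinity receptor, read 3626 in KO and 14220 in WT (3.92-fold lower), with both probes at -1.97. The gene named Fcgr3a on the array, now called Fcgr4, read 938 and 2752 (2.93-fold lower). Fcgr3 had -0.57 (probes at -0.74 and -0.39). Fcgr2b, the inhibitory receptor, read 3274 and 2811 (0.22), and its probe with 10 spots had 0.22 with an SD of 0.08. Fcgrt, the neonatal Fc receptor found in many cell types, had -0.21. Without loess Fcgr2b turned to -0.19, where the median of all genes was -0.23. In tissue the 5 genes lay between -0.25 and 0.04.

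Both ITAM adaptor genes were lower in culture. Tyrobp, which encodes DAP12, read 11690 in KO and 30370 in WT (2.60-fold lower). Fcer1g, the Fc receptor gamma chain, read 7449 and 16140 (2.17-fold lower, probes at -1.24 and -0.99). Trem2, a lipid-sensing receptor that signals through DAP12, read 3413 and 8345 (2.45-fold lower). Lilrb4, an inhibitory receptor, had -0.04. In tissue Tyrobp had -0.07, Fcer1g 0.05, Lilrb4 -0.09 and Trem2 0.48 (535 in KO and 383 in WT). Trem1 was dim on both arrays, with 0.02 in tissue, well above background in KO only.

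Scavenger and sugar receptors were mixed in culture. Cd163, which takes up haemoglobin bound to haptoglobin, was 2.76-fold lower at a low signal (133 in KO and 366 in WT), and Marco, a scavenger receptor of bacteria, was 2.23-fold lower (386 and 862). Mrc1, the mannose receptor, read 8173 and 16150 and fell just short of 2-fold at -0.98. Cd68, a lysosomal glycoprotein, had -0.83, and Siglec1, a sialic acid receptor, had -0.83 with probes at -1.22 and -0.44. Under 5 of the other settings Siglec1 passed 2-fold, with -1.10 to -1.27, and without loess Mrc1 and Cd68 passed it. Msr1, the class A scavenger receptor, had 0.18 with 3 probes between 0.12 and 0.30 (-0.23 without loess).

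In tissue Cd163 was bright in both genotypes (2732 in KO and 2240 in WT, 0.29), as was Mrc1 (3205 and 2677, 0.26). Marco had the lowest ratio of the 49 genes measured there, -0.54, with 354 in KO and 514 in WT. Siglec1 was dim in tissue (114 in KO and 98.5 in WT) and had 0.21, or 1.07 by the scanner software's ratio. Its probe well above background in both channels had 0.12, and the other, well above background in KO only, had 0.31.

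The kinases that recognise dying cells went different ways in culture. Mertk read 569 in KO and 1586 in WT (2.79-fold lower), while Axl read 2830 and 2398 (0.24, or -0.17 without loess). In tissue Mertk had 0.72 (2172 and 1322, or 1.23 without loess) and Axl -0.10. Of the 47 genes measured on both arrays, 19 were below 0 on both, 19 above 0 in tissue and below 0 in culture, 2 the reverse, and 7 above 0 on both. The arrays were normalized separately and compared different kinds of sample, and the difference between them was not tested.

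**Figure D3:**
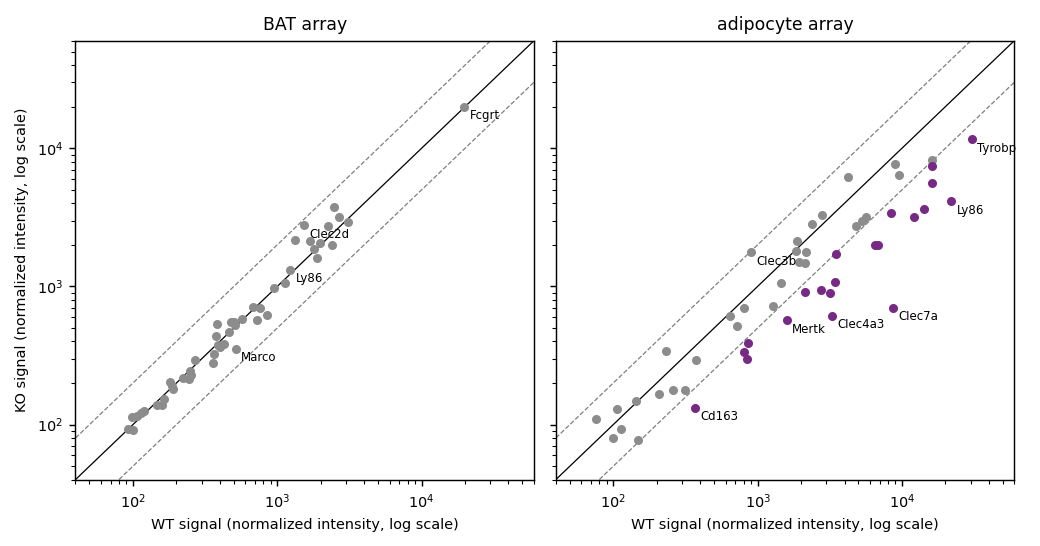
KO signal (y axis) against WT signal (x axis) of each phagocyte receptor gene measured, both as normalized intensity on log scales, for the BAT array (left) and the adipocyte array (right); the solid line marks equal signals, dashed lines 2-fold, and coloured points the 21 genes lower in KO. In tissue the points follow the line of equal signals, and in culture Clec7a is the farthest below it, at 700 against 8685.

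Promoters of the genes were looked at because so many moved together in culture. RefSeq promoters of build GRCm38.p6 were matched for 46 of the 59 genes, and the 250 bases before the first listed start were searched. The motif GAGGAA, a core bound by PU.1, the transcription factor that specifies macrophages, was sought on both strands (as GAGGAA or TTCCTC). It was in 24 of the 46 promoters (52.2%), beside 23.1% of the promoters of all 27025 genes. It did not separate the genes by their ratio in culture: 9 of 16 lower genes (56.2%) and 14 of 24 measured genes under 2-fold (58.3%) held it. The longer form GAGGAAGT was in 2 of the 46, Tlr1 and Fcgr3a, beside 2.44% of all promoters. The NF-kB motif was in 14 of the 46 (30.4%, beside 17.3% of all promoters), in 5 of the 16 lower genes and in 9 of the 24. The AP-1 motif TGAGTCA was in 3 of the 46 (6.52%, beside 4.43%) and in none of the 16 lower genes, the TATA motif TATAAA in 9 (19.6%, beside 13%), and the C/EBP motif TTGCGNAA in 1 (2.17%, beside 0.67%). A match is only a string of letters and not a shown binding site.

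Shown here, 5′ to 3′, are promoters of Clec7a, the gene with the largest difference, of Clec4b1, which has a motif on each strand, and of the neighbours Fcgr3a, lower in the KO culture, and Fcgr2b, not lower and without a match. Capitals mark GAGGAA or its reverse complement. They lie at chr6:129472780-129473029 (minus strand), chr6:123049712-123049961 (plus strand), chr1:171018676-171018925 (plus strand) and chr1:170976072-170976321 (minus strand).
Clec7a: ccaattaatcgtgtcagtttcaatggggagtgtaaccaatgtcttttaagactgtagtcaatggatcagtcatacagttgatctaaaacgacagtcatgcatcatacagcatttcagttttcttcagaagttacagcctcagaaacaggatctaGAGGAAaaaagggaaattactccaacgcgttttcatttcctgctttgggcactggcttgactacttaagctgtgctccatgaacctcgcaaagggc
Clec4b1: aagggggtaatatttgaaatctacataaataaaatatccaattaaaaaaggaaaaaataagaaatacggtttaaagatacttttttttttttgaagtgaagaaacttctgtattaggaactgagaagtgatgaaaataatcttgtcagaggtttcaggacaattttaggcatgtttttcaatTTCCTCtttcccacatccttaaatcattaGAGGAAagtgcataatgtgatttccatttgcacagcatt
Fcgr3a: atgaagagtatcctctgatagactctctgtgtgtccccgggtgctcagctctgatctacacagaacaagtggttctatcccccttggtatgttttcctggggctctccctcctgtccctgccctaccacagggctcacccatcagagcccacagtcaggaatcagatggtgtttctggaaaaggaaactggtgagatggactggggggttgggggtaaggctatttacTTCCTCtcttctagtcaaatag
Fcgr2b: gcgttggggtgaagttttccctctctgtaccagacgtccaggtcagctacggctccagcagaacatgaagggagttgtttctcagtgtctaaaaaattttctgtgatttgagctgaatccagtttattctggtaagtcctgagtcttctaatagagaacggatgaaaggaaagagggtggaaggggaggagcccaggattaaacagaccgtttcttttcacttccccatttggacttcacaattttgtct
The Clec7a match begins 96 bases before the first of its 2 listed starts. Those of Clec4b1 begin 68 and 39 bases before its start, and that of Fcgr3a begins 22 bases before its start.

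The signalling genes behind these receptors followed the receptors only in part. Of 19 measured genes of 20 that act downstream of Fc and lectin receptors, 10 were lower in the KO culture and none higher (median -1.01). The adaptor Pik3ap1 had -1.82, the adaptor Blnk -1.38 and the adaptor Lcp2 -1.31, while Syk itself had -1.18 and the adaptor Lat2 0.52. Of 31 Toll-like receptor signalling genes 4 were lower and none higher, with a median of -0.20. The endotoxin-binding protein gene Lbp had -1.51, the transcription factor Irf5 -1.18, the Ly86 partner Cd180 -1.15 and Unc93b1, which carries nucleic acid receptors to endosomes, -1.11. Myd88 had -0.59 and Nfkb1 -0.43. In tissue none of the 19 and 30 measured genes of those lists passed 2-fold (medians 0.02 and 0.05).

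Of 18 genes of the NADPH oxidase, phagocyte integrins and white cell actin regulators, 12 were lower in the KO culture and none higher (median -1.16). The lysosomal protease gene Ctss had -2.92, the oxidase subunit Cybb -2.43 (also X-linked), the actin regulator Was -1.39 and the lysosomal membrane protein Laptm5 -1.34. Of 13 macrophage transcription factors 5 were lower and none higher (median -0.80), among them Spic (-2.22), Nr1h3 (-2.08), Ikzf1 (-1.67) and Irf8 (-1.62). Nr1h3 is also made by fat cells, whose list had a median of -3.93 in that culture. The part of fat cells in the Nr1h3 ratio was not tested. Spi1, which encodes PU.1, had -0.64. In tissue none of the 18 and 12 measured genes passed 2-fold.

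Of 12 measured ligands that recruit phagocytes or bridge them to dying cells, 3 were higher in the KO culture and none lower (median 0.28). They were the chemokines Cx3cl1 (1.23), Ccl7 (1.14) and Cxcl12 (1.08), while Csf1, the ligand of Csf1r, had 0.49 and Gas6, the ligand of Axl and Mertk, -0.05. Of 16 inflammatory cytokine and enzyme genes (median -0.22), 3 were lower, Il1b (-1.26), Il18 (-1.22) and Il10 (-1.15), and 1 was higher, Il6 (1.80). In tissue the chemokine Cxcl2 (-1.07) was the 1 gene of these lists past 2-fold.

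Markers of other cell types were set beside the phagocyte genes. In culture 1 of 8 measured T cell genes was lower (Cd28, -1.45), none of 3 B cell genes, none of 1 natural killer cell gene, 1 of 4 neutrophil genes (Csf3r, -1.08, not well above background in KO), none of 6 mast cell genes and none of 3 dendritic cell genes, and no gene of these lists was higher. Of the 51 genes listed for these cell types 25 were measured there, and 2 of them were lower, beside 3.81% of all genes. Measured were 8 of 11 T cell and 6 of 8 mast cell genes. Fewer were in the other lists, with 3 of 7 B cell, 1 of 8 natural killer cell, 4 of 10 neutrophil and 3 of 7 dendritic cell genes. Endothelial genes (7 measured, median -0.07) and fibroblast and preadipocyte genes (8 measured, median 0.14) held none past 2-fold. In tissue the mast cell genes were all above 0 (8 measured, 0.21 to 0.84, median 0.42), and Cd3g (-1.05) and Cd209a (-1.09, in 1 channel only) were the genes of white cell lists past 2-fold.

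**Figure D4:**
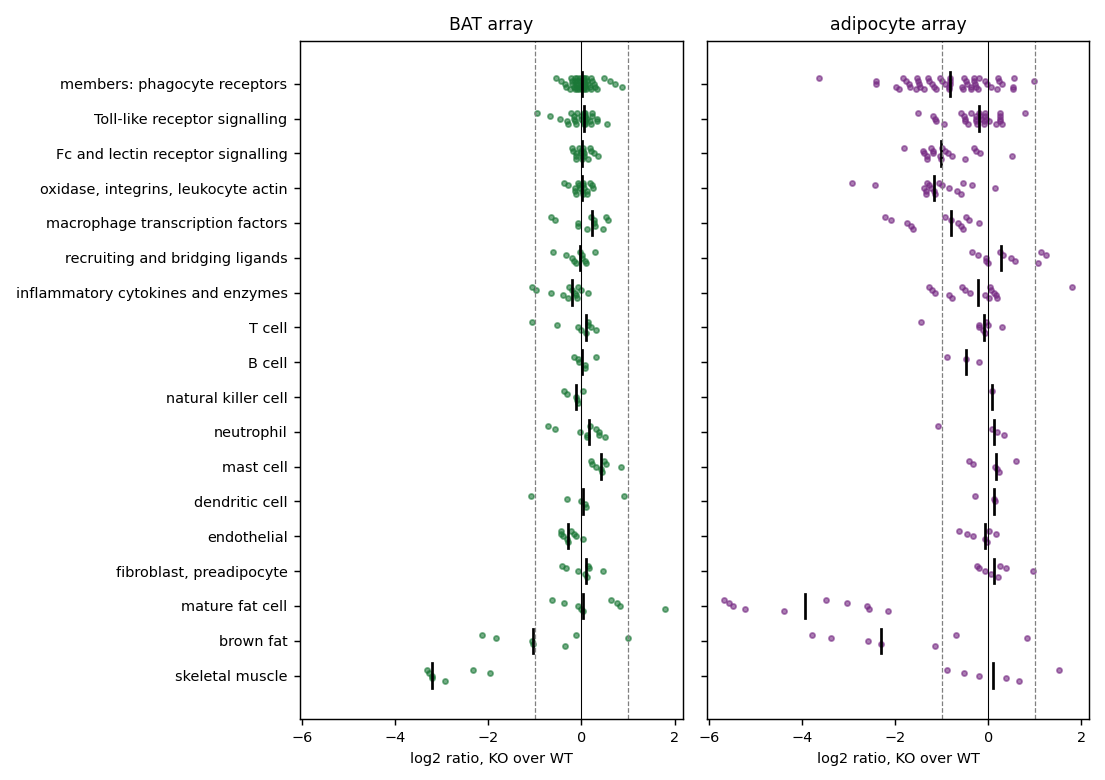
Log2 ratio of KO over WT (x axis) of each measured gene (points) and the median (black bar) of the phagocyte receptors and of pathway and cell type gene lists (y axis), for the BAT array (left) and the adipocyte array (right); dashed lines mark 2-fold. In culture the receptors (median -0.83) sit with the Fc and lectin signalling genes (-1.01) and the oxidase, integrin and actin list (-1.16), and mature fat cell genes lie lowest (-3.93).

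Some genes of these families carry other names on the array. Through RefSeq names, Clec10a (array name Mgl1), a galactose-binding lectin of macrophages, had -3.21 in culture and 0.75 in tissue. The lysozyme genes Lyz2 and Lyz1 had -2.06 and -1.96 in culture and -0.20 and -0.23 in tissue, and the inhibitory receptor Pirb (array name Lilrb3) had -2.03 and 0.12. With such names 25 genes were lower in culture, beside 4.17% lower and 2.5% higher of all genes so named, and in tissue still none was lower or higher, beside 2.44% and 0.8%.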

How the data were processed

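RNA of brown adipose tissue and of cultured brown adipocytes was hybridised on 1 two-colour Agilent array each. Per the file headers, Agilent Feature Extraction 9.5.1.1 made the deposited spot files, which give each dye's mean intensity, its local background (median) and a log10 ratio, red over green. A value table deposited by the authors holds log10 ratios, here of KO over WT. The second copies of the scanner files were not used.

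Intensities were corrected with limma 3.58.1 in R 4.3.3 (normexp, offset 50, then loess, controls at weight 0). Of 43379 gene spots, 1215 (BAT) and 203 (adipocytes) carried an outlier mark (uneven spot or background, or spot outlier) and were left out first. Spots of a probe were averaged, probes well above background in at least 1 channel were kept, and a gene is the mean of its kept probes under the array's gene name. Signals are per channel after both arrays' average brightness was set to one distribution. A gene dim in 1 channel is a bound, "at least N-fold", against the higher of its own signal and the lowest signal well above background. RefSeq symbols were found for 32737 of 41174 probes. The steps were tested on simulated arrays. The genes and lists were chosen with earlier results of these data known. Any member could be named, with values for those past 2-fold and the extremes of each role group, and from each list up to 4 genes past 2-fold or else the largest, though some that this rule names are not reported here. Syk, Myd88, Nfkb1, Lat2, Ly96, Spi1, Csf1 and Gas6 were named beyond that rule, after their values were seen. The planned comparison by protein motif is not reported here, since no protein sequences were used.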

Additional observations from a re-analysis of the deposited data

Results flagged for a closer look

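A few receptor genes lay past 2-fold below 0 in culture and above 0 in tissue by more than the spread between repeated spots. Clec7a had -3.63 in culture and 0.22 in tissue. Mertk had -1.48 and 0.72. Cd163 had -1.46 and 0.29. Trem2 had -1.29 and 0.48, and Cd14 had -1.04 and 0.15. Each value rests on 1 array, and the difference between tissue and culture was not tested.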

How the results depend on the processing

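No paired analysis was possible because each comparison is a single array, so the replicate numbers pair nothing, and no replicate could be left out. Across the 9 alternatives, the 21 genes lower in culture stayed at least 2-fold lower in each of the 8 that keep the array's gene names, and the count of lower genes lay between 21 and 26, the highest without loess. Without loess the median of all genes itself moved to 0.21 in tissue and -0.23 in culture. In culture no gene was higher by the main setting and 2 were with offset 0, with the scanner software's ratio and with the authors' deposited table (Clec1a and Clec3b). The median there was -0.92 with the scanner software's ratio and the deposited table, -1.10 without loess and -0.55 without the filter on dim probes. In tissue 1 gene was higher (Siglec1) with the scanner software's ratio and the deposited table, and 3 were without loess (Clec2d, Mertk and Tlr9), where the median was 0.26. Of the 17 pathway and cell type lists, 5 held a lower gene in tissue and 2 did with outlier spots kept. In culture 9 did, and 14 with the scanner software's ratio and the deposited table. With outlier spots kept the brown fat list's median in tissue went from -1.04 to -0.17. The cause of these shifts was not tested. Role groups were not counted under RefSeq names, where added genes have no role. Clec4a1, dim in KO, ran from -0.81 to -3.07 between settings. Signals near background limit Clec12a, Clec1a, Clec1b, Clec2i, Clec4a1, Clec4g and Trem1, each well above background in only 1 channel of an array. They also limit Siglec1 in tissue, where its probe well above background in both channels had 0.12.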
